A study of Homo sapiens with 8 samples.

Results

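Messenger RNA of the Hippo pathway and of YAP/TAZ target genes was measured by RNA sequencing in MDA-MB-231, a long-established cell line from a triple-negative breast cancer. The 35 genes, of 25369 in the count table, were taken by name from what is known of the pathway: 20 pathway parts and 15 genes commonly used as YAP/TAZ targets. They were chosen with earlier results of these data known. The parts AMOTL2, LATS2 and PTPN14 are themselves often listed among YAP/TAZ targets. The study has 4 groups of 2 libraries each. WT cells carry unmodified SUN2, and SUN2KO cells have the SUN2 gene knocked out. The third group, Kashlid, carries a SUN2 that lacks residues 569 to 585, a deletion meant to cut its tie to Nesprin-2G. The fourth, LBD, carries a SUN2 that lacks residues 1 to 139, meant to cut its tie to the lamins. No label states how the truncated forms were introduced, whether the cells also keep their own SUN2, or whether a line is a single clone.

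SUN2 spans the inner nuclear membrane and, with nesprins in the outer membrane, forms the LINC complex that couples the cytoskeleton to the nuclear lamina. In the Hippo pathway, the kinases MST1 and MST2 (STK4 and STK3) with the scaffold SAV1 activate LATS1 and LATS2 with their MOB1 partners, and LATS kinases phosphorylate YAP and TAZ. Phosphorylated YAP and TAZ are held in the cytoplasm or degraded, whereas unphosphorylated YAP and TAZ enter the nucleus and switch on genes through TEAD transcription factors. Mechanical tension on the cell is a known input to this switch, and MDA-MB-231 cells are known for high YAP/TAZ activity and for an inactivating mutation of NF2. These steps act on protein phosphorylation and location, which messenger RNA counts do not measure.

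TEAD factors bind the hexamer GGAATG, so the sequence before the start site was read for the members that RefSeq promoters (GRCh38.p14) cover. Of the 35 genes, 28 had an entry, and the other 7 (CYR61, CRIM1, DOCK5, ASAP1, TEAD1, TEAD4 and STK3) had none. The window ran from 250 bases before to 50 bases after the start site, and GGAATG was searched on both strands. CTGF and ANKRD1 are shown because they are the textbook targets with most copies, NUAK2 because it holds 2 copies, and NT5E because it had the largest rise among the members and holds no copy. The 250 bases before each start site are printed 5′ to 3′ on the gene's strand, with GGAATG or its reverse complement in capitals. They lie at chr6:131951373-131951622 (minus strand), chr10:90921088-90921337 (minus strand), chr1:205321746-205321995 (minus strand) and chr6:85449833-85450082 (plus strand).
CTGF: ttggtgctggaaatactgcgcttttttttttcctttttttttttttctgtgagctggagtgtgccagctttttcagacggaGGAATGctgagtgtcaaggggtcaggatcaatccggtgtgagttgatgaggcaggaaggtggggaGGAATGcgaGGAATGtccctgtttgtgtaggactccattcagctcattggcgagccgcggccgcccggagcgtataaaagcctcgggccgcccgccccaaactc
ANKRD1: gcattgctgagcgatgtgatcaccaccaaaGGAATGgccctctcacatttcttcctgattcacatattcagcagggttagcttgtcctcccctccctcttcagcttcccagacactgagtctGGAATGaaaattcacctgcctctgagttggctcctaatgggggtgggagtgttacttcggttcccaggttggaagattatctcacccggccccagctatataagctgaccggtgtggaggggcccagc
NUAK2: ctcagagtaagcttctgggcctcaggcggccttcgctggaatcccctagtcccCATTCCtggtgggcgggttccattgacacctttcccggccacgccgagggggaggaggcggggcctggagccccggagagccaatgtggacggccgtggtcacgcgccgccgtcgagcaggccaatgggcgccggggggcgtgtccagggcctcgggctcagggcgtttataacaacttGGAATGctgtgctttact
NT5E: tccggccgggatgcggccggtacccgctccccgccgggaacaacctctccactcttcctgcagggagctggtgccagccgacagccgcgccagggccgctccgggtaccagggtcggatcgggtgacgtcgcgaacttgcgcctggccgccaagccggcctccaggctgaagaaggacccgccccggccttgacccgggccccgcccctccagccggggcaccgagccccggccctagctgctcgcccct

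The CTGF promoter held 3 copies, at -169, -104 and -95 from the start site (first base of each copy), a number that 0.128% of all 35116 promoters reached. ANKRD1 held 2, at -220 and -128, and NUAK2 held 2, at -197 and -18; at least 2 copies were found in 1.37% of all promoters. FOXF2 (-196), YAP1 (-162), PTPN14 (-200) and LATS2 (10) held 1 copy each. In all, 4 of 11 target promoters (36.4%) and 3 of 17 promoters of pathway parts (17.6%) held the hexamer, against 14% of all promoters. A match describes the letters only. TEAD binding was not measured, and a promoter without a match, such as that of NT5E, may be served by sites outside the window.

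Depth was even, at 16570099 to 18814795 counts per library, and 14016 genes passed the filter on low counts. SUN2 itself, which checks the labels, was at 82.8 ± 1.30 CPM (a gene's counts scaled to the size of its library, SD, n = 2) in WT, against 28.0 ± 3.29 for SUN2KO, 36.3 ± 1.28 for Kashlid and 33.6 ± 1.49 for LBD, so its transcript was lower than WT in every line and not gone from SUN2KO. No label tells whether replicates are separate cultures, so each p-value rests on a spread that may be technical. Replicates differed by more than counting noise in every group, most in Kashlid, where chi-square per degree of freedom was 5.46 against 2.48 to 3.38 elsewhere. The line's mesenchymal markers VIM, CD44, SPARC and AXL were together at 841 to 995 CPM in every library. This sum covers changes both ways: against WT, 1 rose and 1 fell for SUN2KO, 2 fell for Kashlid, and 1 rose and 2 fell for LBD. VIM averaged 404 CPM for WT, against 299 for SUN2KO, 300 for Kashlid and 337 for LBD. SPARC went from 135 to 163, 109 and 113 in the same order, and CD44 from 333 to 323, 339 and 414. AXL averaged 102 to 108 CPM per group. The luminal markers CDH1, ESR1, PGR and GATA3 were each under 2 CPM, while FOXA1 (11.1 and 13.3 CPM in WT, 16.0 to 21.5 in the lines) rose in each line, and KRT8 was abundant and rose in SUN2KO and LBD. Raw counts of CDH1 were 10 and 10 in WT, 12 and 24 in SUN2KO, 21 and 15 in LBD, and highest in Kashlid, at 29 and 21. The summed luminal list was 1039 to 1076 CPM in WT and 1656 to 1678 in SUN2KO. The 6 markers of HEK293-type cells, the other line grown in the study, summed to 9.32 to 9.75 CPM in WT and 5.61 to 7.79 in the 3 lines, most of it TUBB2B, which fell in each line. LIN28B (0 in WT, under 1 CPM in the lines) and LHX1 (under 2 CPM) rose in each line. The part of these marker lists in the results was not tested.

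Of the 35 genes, 33 passed the filter, 19 parts and 14 targets; ANKRD1 and AMOT did not and are given as counts. A gene is said to rise or fall where its Benjamini-Hochberg adjusted p over all 14016 genes was under 0.05 in edgeR's quasi-likelihood test. In SUN2KO against WT, 5 of the 33 rose and 7 fell, 36.4% called, where 36.7% of all genes tested were called (17.5% higher and 19.1% lower). In Kashlid against WT, 5 rose and 12 fell, 51.5% called against 44.5% of all genes (21.7% higher and 22.7% lower). In LBD against WT, 5 rose and 13 fell, 54.5% called against 40.0% of all genes (19.0% higher and 21.0% lower). With so many genes called in each line, a called member is no rarity, and the count in SUN2KO sits at the background. The imbalance was in direction: 36.4% of members fell in Kashlid and 39.4% in LBD, where 22.7% and 21.0% of all genes fell. With the filter raised to 5 CPM in 2 libraries, this gap was smaller: 10 of 32 members fell in Kashlid, beside 2900 of 11162 genes. In LBD 11 fell, beside 2695. Called in either direction were 16 members in Kashlid, beside 5691 genes, and 17 in LBD, beside 5124. The members' share called in Kashlid was then no higher than that of all genes. The members' median was a log2 fold change of -0.09 over WT in the SUN2KO line, -0.18 in Kashlid and -0.20 in LBD, with the median of all genes within 0.0054 of 0. In bulk RNA, fewer cells expressing a gene and less RNA per cell cannot be told apart. The 3 comparisons use the same WT libraries and are not independent.

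The targets carried 4 of the 7 falls in SUN2KO, 7 of 12 in Kashlid and 7 of 13 in LBD. Of the 14 tested, 4 fell in SUN2KO (CYR61, CRIM1, DOCK5 and NT5E). In Kashlid 7 fell (CYR61, CTGF, CRIM1, DOCK5, FJX1, MYOF and ASAP1) and F3 rose. In LBD 7 fell (CYR61, CTGF, CRIM1, DOCK5, MYOF, RBMS3 and ASAP1), while F3 and NT5E rose. The shares called in either direction were 28.6%, 57.1% and 64.3%, against 36.7%, 44.5% and 40.0% of all genes. Of all genes, 19.1%, 22.7% and 21.0% fell. The median log2 fold change of the targets was -0.37, -0.31 and -0.33 in SUN2KO, Kashlid and LBD.

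**Figure D1:**
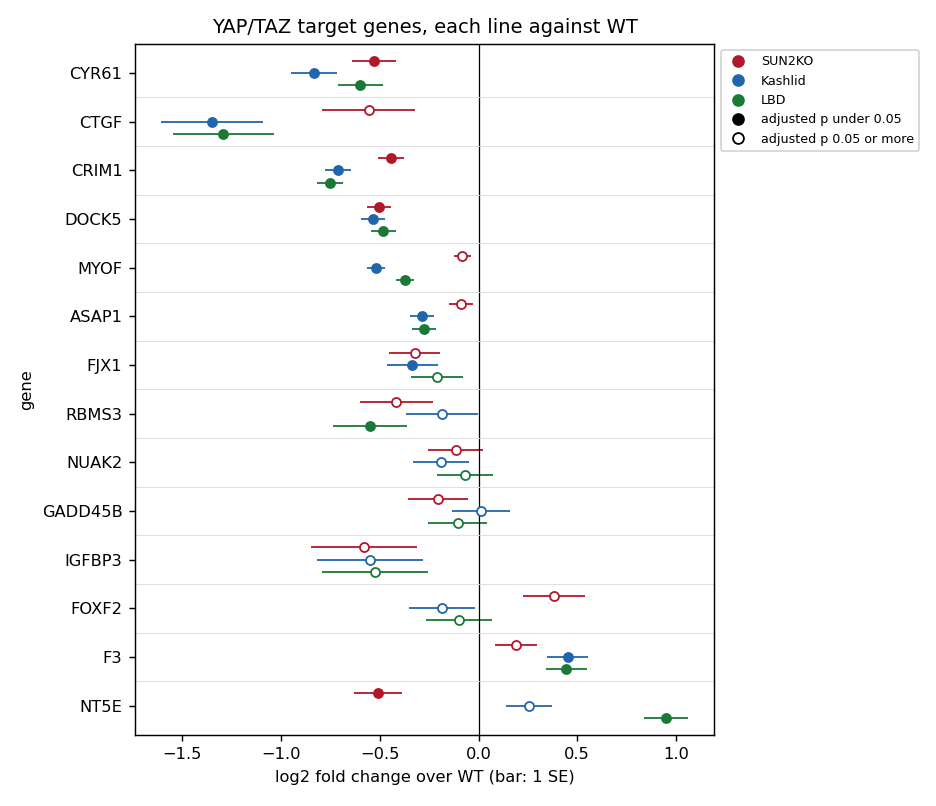
Log2 fold change over WT (x axis, bar 1 SE) of the 14 targets that passed the filter, for SUN2KO (red), Kashlid (blue) and LBD (green), filled where adjusted p was under 0.05. Most points lie left of 0, CTGF reaches -1.35 in Kashlid, and NT5E lies left of 0 in SUN2KO and at 0.95 in LBD.

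CYR61 (CCN1; chromosome 1, 86046444 to 86049648 on hg19), a secreted matricellular protein, was lower in all 3 lines. It stood at 41.2 and 39.0 CPM in WT, against 29.2 and 26.4 for SUN2KO, 26.4 and 18.7 for Kashlid, and 25.9 and 27.0 for LBD. Every library of the 3 lines was below both WT libraries. Against WT the log2 fold change was -0.53 ± 0.11 (SE) in SUN2KO (adjusted p = 8.56e-04), -0.83 ± 0.12 in Kashlid (6.39e-06) and -0.60 ± 0.11 in LBD (2.56e-04), which leaves 69.3%, 56.2% and 66.0% of the WT level. These calls held without any single library and in DESeq2.

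CTGF (CCN2; chromosome 6, 132269317 to 132272518), the close relative of CYR61 and the other standard readout of YAP/TAZ, was measured near the bottom of the range. Raw counts were 81 and 98 in WT, against 65 and 66 for SUN2KO, 43 and 27 for Kashlid, and 35 and 37 for LBD. As CPM these are 4.82 and 5.57 in WT, against 3.52 and 3.55 for SUN2KO, 2.49 and 1.58 for Kashlid, and 2.02 and 2.21 for LBD, an order in which SUN2KO lies between WT and the truncation lines without overlap. CTGF fell to 39.3% of WT in Kashlid (log2 fold change -1.35 ± 0.26, adjusted p = 2.26e-04) and to 40.8% in LBD (-1.29 ± 0.26, 3.9e-04). In SUN2KO its value was -0.56 ± 0.24, which missed the threshold (0.0698). That comparison passed when only the SUN2KO and WT libraries were fitted (0.0342), and with the shift of its chromosomal window removed (-0.73, 0.0247). It did not pass in DESeq2 (0.200) or in the authors' deposited table (0.228).

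ANKRD1, a stress-induced ankyrin repeat protein and the third standard readout, was barely expressed: 8 and 11 counts in WT, against 8 and 2 for SUN2KO, 0 and 2 for Kashlid, and 0 and 1 for LBD. The summed WT level was 2.05 times that of SUN2KO (exact 95% counting interval 0.906 to 4.93), 9.48 times that of Kashlid (2.29 to 83.9) and 18.8 times that of LBD (2.98 to 780). These intervals cover counting error only, and no test across replicates was made. Both WT libraries had more counts than any library of Kashlid or LBD, and the SUN2KO libraries overlapped with both sides.

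CRIM1, a transmembrane protein that binds bone morphogenetic proteins, was lower in all 3 lines and lowest in the truncation lines. It measured 340 and 332 CPM in WT, against 258 and 236 for SUN2KO, 224 and 186 for Kashlid, and 202 and 197 for LBD. The groups of the 3 lines did not overlap with WT, and SUN2KO did not overlap with the truncation lines. CRIM1 fell by 0.44 ± 0.07 on the log2 scale in SUN2KO (adjusted p = 1.85e-05), by 0.71 ± 0.07 in Kashlid (2.66e-08) and by 0.75 ± 0.07 in LBD (1.52e-08), to 73.5%, 61.0% and 59.4% of WT.

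MYOF, the membrane-repair ferlin myoferlin, separated the truncation lines from SUN2KO. Its levels were 493 and 496 CPM in WT, against 477 and 458 for SUN2KO, 356 and 334 for Kashlid, and 384 and 379 for LBD. SUN2KO lay just under WT, and both truncation lines lay well below both. MYOF fell by 0.52 ± 0.05 in Kashlid (adjusted p = 1.26e-08) and by 0.37 ± 0.05 in LBD (1.47e-06), with -0.08 ± 0.05 in SUN2KO (0.17). ASAP1, a GTPase-activating protein for Arf, had a smaller change of the same shape. It measured 108 and 110 CPM in WT, against 101 and 104 for SUN2KO, 86.2 and 92.7 for Kashlid, and 93.5 and 86.3 for LBD. It fell by 0.29 ± 0.06 in Kashlid (6.96e-04) and by 0.28 ± 0.06 in LBD (0.00106), and its value in SUN2KO was -0.09 ± 0.06 (0.272).

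DOCK5, an exchange factor that activates Rac, fell by a like amount in each line. The WT libraries had 184 and 174 CPM, those of SUN2KO 130 and 122, of Kashlid 131 and 116, and of LBD 126 and 131. The 3 lines overlapped with each other and not with WT. The log2 fold changes were -0.50 ± 0.06 (adjusted p = 1.69e-06), -0.53 ± 0.06 (5.53e-07) and -0.48 ± 0.06 (2.64e-06) for SUN2KO, Kashlid and LBD. DOCK5 lies on chromosome 8 among genes that were also lower in these lines, as given with the chromosomal windows.

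**Figure D2:**
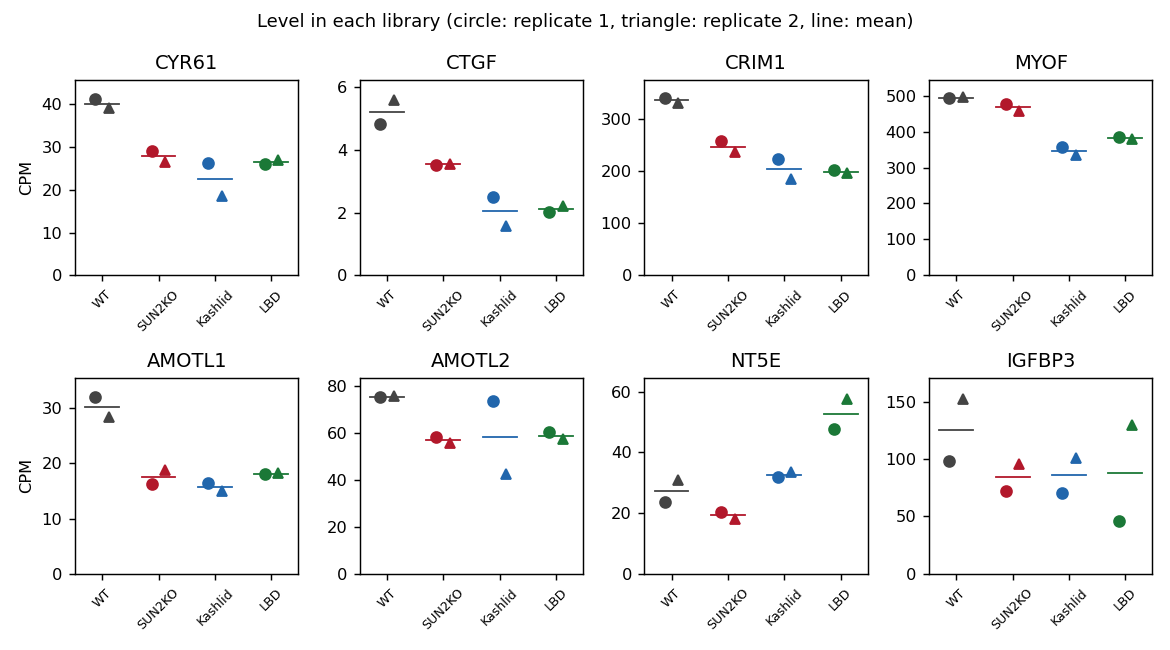
CPM (y axis, from 0) of 8 members in each library, by group (x axis); circles are replicate 1, triangles replicate 2, lines the group mean. CYR61, CTGF, CRIM1 and AMOTL1 are highest in WT, NT5E is highest in LBD at 47.9 and 57.8 CPM, and the replicates of AMOTL2 in Kashlid and of IGFBP3 in every group lie far apart.

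NT5E (CD73; chromosome 6, 86159302 to 86205509), the surface enzyme that makes adenosine from AMP, went in opposite directions. It stood at 23.6 and 31.1 CPM in WT, against 20.5 and 17.9 for SUN2KO, 31.8 and 33.5 for Kashlid, and 47.9 and 57.8 for LBD. SUN2KO was below and both truncation lines were above every WT library, with LBD highest. NT5E rose 1.93-fold in LBD (log2 fold change 0.95 ± 0.11, adjusted p = 1.05e-06). It fell by 0.51 ± 0.12 in SUN2KO (0.00247), a call that was lost without WT replicate 2 (0.112) or without SUN2KO replicate 2 (0.0564). In Kashlid its value was 0.25 ± 0.12 (0.0825), and 0.47 without WT replicate 2 (0.00914). F3, the tissue factor that starts blood coagulation, was at 14.9 and 15.9 CPM in WT, against 17.5 and 17.7 for SUN2KO, 20.9 and 21.3 for Kashlid, and 20.4 and 21.6 for LBD. Here too no line overlapped with WT. F3 rose by 0.45 ± 0.11 in Kashlid (0.00154) and by 0.45 ± 0.11 in LBD (0.00201), with 0.19 ± 0.11 in SUN2KO (0.172).

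The other targets moved little or varied between replicates. FJX1, a secreted kinase-like regulator of planar polarity, fell by 0.33 ± 0.13 in Kashlid (adjusted p = 0.043), a call lost in DESeq2 (0.0825), without WT replicate 1 (0.34) and without Kashlid replicate 1 (0.314). RBMS3, an RNA-binding protein at 4.97 to 8.41 CPM, fell by 0.55 ± 0.19 in LBD (0.0247). That call was lost in DESeq2 (0.074), without WT replicate 1 (0.0624), WT replicate 2 (0.132) or LBD replicate 1 (0.2). FOXF2, a forkhead transcription factor, was at 7.04 to 7.19 CPM in WT and 8.98 to 9.56 in SUN2KO, a difference of 0.38 ± 0.16 that did not pass (0.0647). GADD45B, a stress-response protein, and NUAK2, an AMPK-related kinase, passed in no comparison, with log2 fold changes over WT between -0.21 and 0.01 and between -0.19 and -0.07. For NUAK2 the 95% intervals allow changes from -0.48 to 0.22, so a change of the size seen in CYR61 in Kashlid lies outside them.

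IGFBP3, an abundant secreted binding protein of insulin-like growth factors, varied most between replicates. Its libraries had 98.4 and 152 CPM in WT, against 72.1 and 95.9 for SUN2KO, 70.5 and 101 for Kashlid, and 45.8 and 129 for LBD. The second replicate was the higher in all 4 groups, and WT overlapped with Kashlid and LBD. The log2 fold changes of -0.58 ± 0.27, -0.55 ± 0.27 and -0.52 ± 0.27 did not pass (adjusted p = 0.0962, 0.102 and 0.13). Without WT replicate 1 they were larger, at -0.86, -0.83 and -0.80. With no filter on low counts they hardly moved (-0.58, -0.55 and -0.52), yet adjusted p in edgeR's test became 9.35e-18, 3.66e-16 and 1.42e-14. That fit cannot have carried the spread between these replicates, and no conclusion is drawn from it. Without LBD replicate 2, the value in LBD was -1.45 (5.44e-05), and without Kashlid replicate 2 that in Kashlid was -0.83 (0.0215).

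Among the 19 tested pathway parts, 5 rose and 3 fell in SUN2KO, 4 rose and 5 fell in Kashlid, and 3 rose and 6 fell in LBD, with medians of 0.11, 0.06 and 0.01. The shares called, 42.1%, 47.4% and 47.4%, were near those of all genes (36.7%, 44.5% and 40.0%). The genes that rose in at least 1 line were LATS1, MOB1A, STK4, SAV1 and WWC1. LATS1, a kinase that phosphorylates YAP and TAZ, had 79.3 and 73.7 CPM in WT, against 105 and 91.0 for SUN2KO, 94.9 and 95.4 for Kashlid, and 96.2 and 85.3 for LBD, all above WT. It rose by 0.36 ± 0.07 in SUN2KO (adjusted p = 6.02e-04), 0.31 ± 0.07 in Kashlid (0.00153) and 0.25 ± 0.07 in LBD (0.0111); the last was lost without WT replicate 2 (0.12) or LBD replicate 1 (0.175). MOB1A, the adaptor of LATS, had 83.0 and 88.6 CPM in WT and 96.6 to 109 across the 3 lines. It rose by 0.32 ± 0.06 (2.41e-04), 0.26 ± 0.06 (0.00143) and 0.18 ± 0.06 (0.0214), and the LBD call was lost without WT replicate 1 (0.211), LBD replicate 1 (0.0919) or LBD replicate 2 (0.0602). Its near-identical paralog MOB1B, which may share reads with it, had values of -0.14, -0.08 and -0.21 and did not pass.

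STK4 and STK3, the paired MST kinases, went opposite ways. STK4 had 128 and 126 CPM in WT, against 150 and 143 for SUN2KO, 148 and 145 for Kashlid, and 137 and 134 for LBD. It rose by 0.21 ± 0.05 in SUN2KO (adjusted p = 0.00368, and 0.0521 without SUN2KO replicate 1) and by 0.21 ± 0.05 in Kashlid (0.00312), with 0.10 ± 0.05 in LBD (0.163). STK3 had 21.0 and 21.6 CPM in WT, against 16.7 and 16.5 for SUN2KO, 18.4 and 16.3 for Kashlid, and 15.2 and 14.0 for LBD. It fell by 0.36 ± 0.11 (0.0127), 0.29 ± 0.11 (0.0328) and 0.54 ± 0.11 (5.07e-04). The call in SUN2KO was lost without WT replicate 2 (0.0783), SUN2KO replicate 1 (0.061) or SUN2KO replicate 2 (0.0716). In Kashlid it was lost in DESeq2 (0.0989), without WT replicate 1 (0.087), WT replicate 2 (0.141) or Kashlid replicate 2 (0.225). SAV1, the scaffold of the MST kinases, rose in SUN2KO by 0.32 ± 0.08 (0.00243), from 48.4 and 50.2 to 61.1 and 61.6 CPM. LATS2, the second YAP/TAZ kinase, fell in LBD by 0.24 ± 0.09 (0.0397). That call was lost in DESeq2 (0.103), without WT replicate 1 (0.124), WT replicate 2 (0.134) or LBD replicate 2 (0.417).

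The angiomotins hold YAP at junctions and actin filaments, and one of them gave the deepest fall among the pathway parts. AMOTL1 (chromosome 11, 94501508 to 94609918) stood at 32.0 and 28.5 CPM in WT, against 16.3 and 18.9 for SUN2KO, 16.5 and 14.96 for Kashlid, and 18.0 and 18.3 for LBD. Every library of the lines lay far below WT, and SUN2KO overlapped with both truncation lines. AMOTL1 fell by 0.78 ± 0.11 (adjusted p = 7.97e-06), 0.94 ± 0.11 (6.09e-07) and 0.74 ± 0.11 (1.42e-05), to 58.3%, 52.1% and 60.1% of WT, and each call held without any single library. AMOTL2, itself a YAP/TAZ target, had 75.4 and 75.7 CPM in WT, against 58.4 and 56.0 for SUN2KO, 73.9 and 42.7 for Kashlid, and 60.4 and 57.3 for LBD. Its Kashlid replicates stood on either side of the other 2 lines. It fell by 0.40 ± 0.14 (0.0242), 0.37 ± 0.14 (0.03) and 0.36 ± 0.14 (0.0401). The authors' deposited tables give adjusted p of 7.11e-05 in SUN2KO, 0.532 in Kashlid and 7.92e-04 in LBD. DESeq2 fitted here on all 8 libraries lost all 3 calls (0.275, 0.281 and 0.335). In SUN2KO and LBD leaving out any library of the pair compared also ended the call (0.0803 to 0.151 and 0.0975 to 0.185). In Kashlid the call ended without WT replicate 1 (0.0903), WT replicate 2 (0.107) or Kashlid replicate 2 (0.79, at -0.03). AMOT, the founding angiomotin, was almost silent: 0 counts in the WT and LBD libraries, 4 and 1 in SUN2KO, and 1 and 4 in Kashlid. A count of 0 in WT allows up to 3 counts, or 0.0871 CPM, so no fold is given.

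Of the upstream regulators, WWC1 (KIBRA), which activates LATS together with NF2, had 75.6 and 72.5 CPM in WT and 80.4 to 89.8 in the lines. It rose by 0.19 ± 0.06 in SUN2KO (adjusted p = 0.0236), 0.20 ± 0.06 in Kashlid (0.0157) and 0.26 ± 0.06 in LBD (0.00349). Leaving out any library of the pair ended the SUN2KO call (0.0571 to 0.173), as did DESeq2 (0.0592). The Kashlid call ended without WT replicate 2 (0.12) or Kashlid replicate 1 (0.191). PTPN14, a phosphatase that binds YAP and restrains it, had 124 and 128 CPM in WT, against 121 and 122 for SUN2KO, 112 and 98.8 for Kashlid, and 97.9 and 83.5 for LBD. It fell by 0.47 ± 0.07 in LBD (2.04e-05) and by 0.26 ± 0.07 in Kashlid (0.00552); the latter was lost without WT replicate 2 (0.0551) or Kashlid replicate 2 (0.0779). NF2 (merlin), at 35.2 to 43.8 CPM, and AJUBA, a LIM protein that restrains LATS, at 61.4 to 88.3 CPM, did not pass against WT. AJUBA measured 87.2 and 61.4 CPM in the Kashlid replicates and, without Kashlid replicate 1, was -0.39 from WT (2.88e-04).

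**Figure D3:**
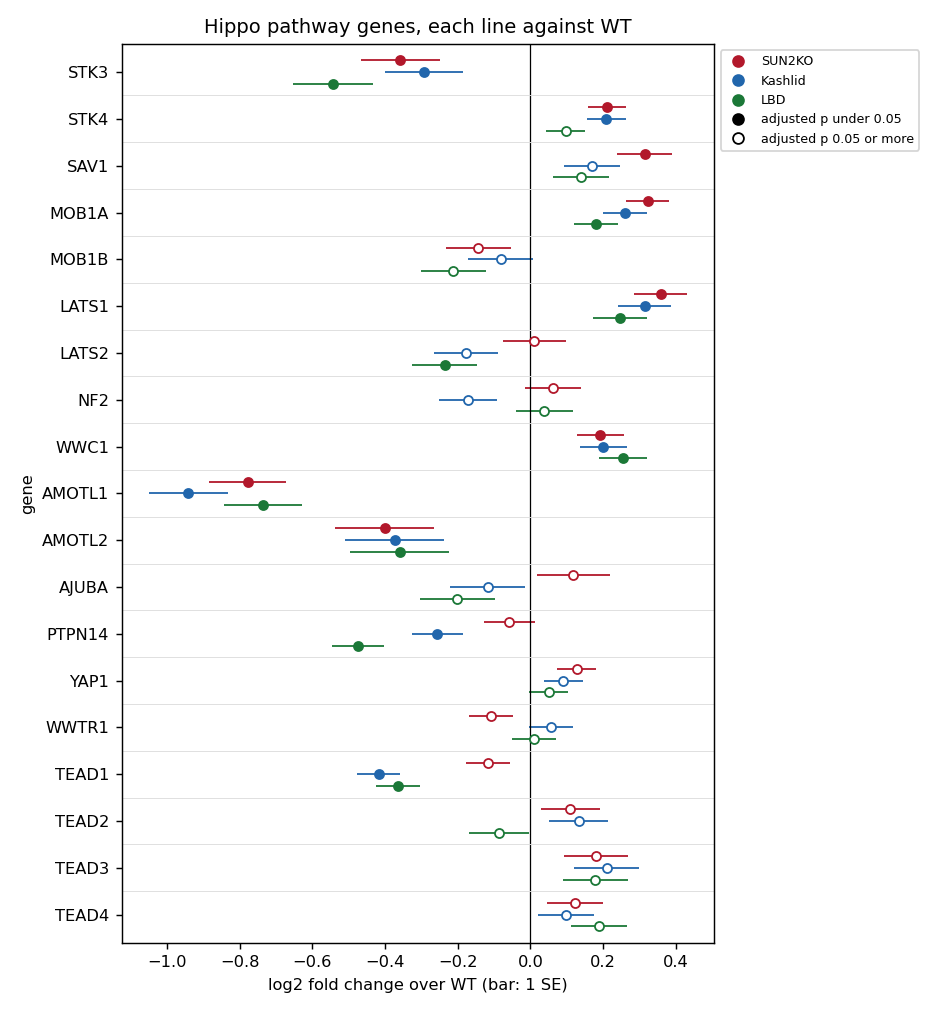
Log2 fold change over WT (x axis, bar 1 SE) of the 19 pathway parts that passed the filter, for SUN2KO (red), Kashlid (blue) and LBD (green), filled where adjusted p was under 0.05. LATS1, MOB1A and WWC1 lie right of 0 in every line, AMOTL1 is the farthest left at -0.94 in Kashlid, and YAP1 and WWTR1 lie close to 0.

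The coactivators themselves did not pass in any comparison. YAP1 had 317 and 323 CPM in WT, against 352 and 347 for SUN2KO, 363 and 319 for Kashlid, and 340 and 323 for LBD. Its log2 fold changes over WT were 0.13 ± 0.05 in SUN2KO (adjusted p = 0.07; 95% interval 0.02 to 0.24), 0.09 ± 0.05 in Kashlid (-0.02 to 0.20) and 0.05 ± 0.05 in LBD (-0.06 to 0.16). The authors' deposited table gives YAP1 in SUN2KO an adjusted p of 0.0235, and a fit of the SUN2KO and WT libraries alone also passed (0.00832). DESeq2 fitted here did not call YAP1 in SUN2KO (0.119). Without Kashlid replicate 2, YAP1 was 0.18 over WT in Kashlid (0.00508). WWTR1, the gene of TAZ, had 84.4 and 82.7 CPM in WT, against 79.8 and 75.1 for SUN2KO, 85.5 and 88.4 for Kashlid, and 82.7 and 85.5 for LBD. Its values were -0.11, 0.06 and 0.01, with 95% intervals that ran from -0.23 to 0.18 across the 3 lines.

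Of the TEAD factors, TEAD1 was the most abundant in CPM, and it fell in the truncation lines. It had 579 and 574 CPM in WT, against 548 and 515 for SUN2KO, 470 and 393 for Kashlid, and 455 and 440 for LBD. No line overlapped with WT, and SUN2KO was closest to it. TEAD1 fell by 0.42 ± 0.06 in Kashlid (adjusted p = 8.87e-06) and by 0.36 ± 0.06 in LBD (5.08e-05), with -0.12 ± 0.06 in SUN2KO (0.133). That value passed with no filter (0.0401) and with only the SUN2KO and WT libraries fitted (0.00793), and the authors' deposited table gives it an adjusted p of 0.0350. It did not pass in DESeq2 fitted here (0.173). TEAD2, TEAD3 and TEAD4, at 24.9 to 55.7 CPM over all libraries, did not pass against WT, with values between -0.09 and 0.21.

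Per kilobase of exon (union of GENCODE v29 exons, on CPM), the ranking in WT was led by MYOF (68.4), TEAD1 (62.2), YAP1 (56.9) and CRIM1 (56.8). IGFBP3 followed at 47.7, with 37.4 and 57.9 in its 2 libraries, so its place among these is uncertain. YAP1 was thus above WWTR1 (15.6), and TEAD1 above TEAD4 (26.7), TEAD2 (15.4) and TEAD3 (8.21). The core kinases lay lower, with STK4 at 19.7, LATS1 at 9.85, LATS2 at 6.64 and STK3 at 6.38. The classic readouts spanned the scale, from CYR61 at 17.5 to CTGF at 2.22 and ANKRD1 at 0.278, with AMOT at 0.

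The direct comparisons of the lines test where they differ. Kashlid against SUN2KO called 8 of the 33 members, NT5E higher and 7 lower (24.2%, against 18.0% of all genes, 8.92% higher and 9.13% lower), and LBD against SUN2KO called 7, NT5E higher and 6 lower (21.2%, against 13.5% of all genes, 6.69% higher and 6.79% lower). LBD against Kashlid called NT5E alone (3.03%, against 2.91% of all genes, 1.63% higher). In that comparison DESeq2 gave no adjusted p for NT5E, nor for other members such as CYR61, CTGF, AMOTL1, LATS2 and TEAD2. It therefore says nothing for or against the NT5E call. DESeq2 called MYOF there (0.15 higher in LBD, adjusted p = 0.0469). MYOF fell by 0.44 ± 0.05 in Kashlid (adjusted p = 6.04e-07) and 0.29 ± 0.05 in LBD (1.06e-04) below SUN2KO. TEAD1 fell by 0.30 ± 0.06 in Kashlid (0.00108) and by 0.25 ± 0.06 in LBD (0.00689; 0.134 without SUN2KO replicate 1, 0.0953 without LBD replicate 2). CRIM1 fell by 0.27 ± 0.07 in Kashlid (0.00657; 0.148 without SUN2KO replicate 1, 0.109 without Kashlid replicate 2) and by 0.31 ± 0.07 in LBD (0.00285; 0.0971 without SUN2KO replicate 1). PTPN14 fell by 0.42 ± 0.07 in LBD (3.18e-04).

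NT5E was highest in LBD: it was 1.46 ± 0.12 above SUN2KO (adjusted p = 1.32e-08) and 0.69 ± 0.11 above Kashlid (0.00142), and Kashlid was 0.76 ± 0.12 above SUN2KO (1.04e-04). CTGF was 0.79 ± 0.27 lower in Kashlid than in SUN2KO (0.0436), a call lost in DESeq2 (0.132), without SUN2KO replicate 1 (0.153), SUN2KO replicate 2 (0.141) or Kashlid replicate 2 (0.301). In LBD the value for CTGF was -0.74 ± 0.27 (0.0727). FOXF2 in Kashlid was 0.57 ± 0.16 below SUN2KO (-0.57, 0.0171), and this ended in DESeq2 (0.0701), without SUN2KO replicate 1 (0.0603), SUN2KO replicate 2 (0.103) or Kashlid replicate 1 (0.0901). ASAP1 (-0.20 and -0.19 in Kashlid and LBD, 0.0277 and 0.0434), NF2 in Kashlid (-0.23, 0.0421) and AJUBA in LBD (-0.32, 0.0416) lost their calls in DESeq2 (0.0633, 0.116, 0.123 and 0.365). These 4 calls also ended without at least 3 of the 4 libraries in turn, with adjusted p between 0.0815 and 0.374 for ASAP1, 0.058 and 0.303 for NF2, and 0.0995 and 0.264 for AJUBA.

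Other members were not told apart between the lines. For CYR61 the difference between LBD and SUN2KO was -0.07 (95% interval -0.31 to 0.17), and that between Kashlid and SUN2KO was -0.30 (adjusted p = 0.0842). Without Kashlid replicate 1 the latter was -0.57 (9.67e-04). For DOCK5 the intervals were narrow, at -0.11 to 0.15 for LBD against SUN2KO and -0.16 to 0.10 for Kashlid against SUN2KO. AMOTL1 in LBD differed from SUN2KO by 0.04 (-0.19 to 0.28).

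**Figure D4:**
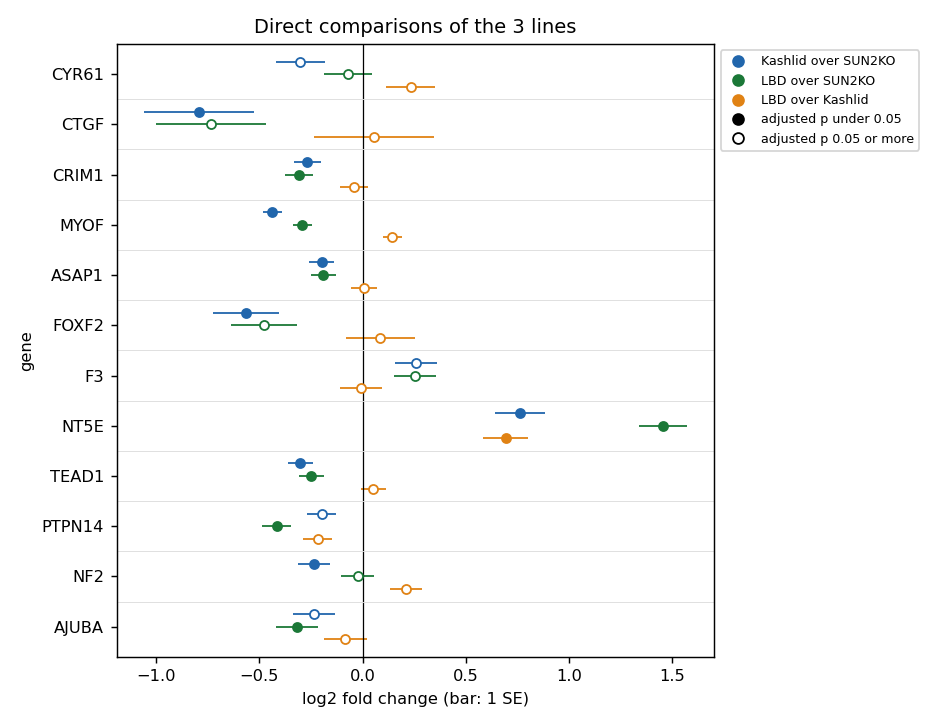
Log2 fold change between lines (x axis, bar 1 SE) for 12 members: Kashlid over SUN2KO (blue), LBD over SUN2KO (green) and LBD over Kashlid (orange), filled where adjusted p was under 0.05. MYOF, CRIM1 and TEAD1 lie left of 0 against SUN2KO in both truncation lines, and NT5E lies right of 0 in all 3 comparisons, at 1.46 for LBD over SUN2KO.

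Genes in stretches of some chromosomes shifted together in these lines, so each member was set beside the median of the tested genes in its 5 Mb window, itself included, where that held at least 15 genes (25 of the 33 members). The window of DOCK5 had medians of -0.36, -0.31 and -0.36 in SUN2KO, Kashlid and LBD. With the window's shift removed, the DOCK5 calls in SUN2KO (adjusted p = 0.0917) and LBD (0.158) ended. STK3, also on chromosome 8, had window medians of -0.11, -0.16 and -0.26, and its calls in all 3 lines ended (0.0941, 0.353 and 0.054). MYOF lay the other way, in a window at 0.34, 0.26 and 0.26 on chromosome 10, and with the shift removed it was -0.42 in SUN2KO (4.94e-07). WWTR1 in SUN2KO likewise went from -0.11 to -0.31 (5.91e-04) when its window's 0.20 was removed. For CYR61, CRIM1, AMOTL1 and TEAD1 the window medians over WT were between -0.11 and 0.14, and no call of theirs over WT ended. TEAD1 in SUN2KO went from -0.12 to -0.20 (0.016) and so passed. ASAP1 had 7 genes in its window and was not adjusted; their medians were -0.27, -0.33 and -0.30, as low as or lower than ASAP1 itself. Copy number was not measured, and what moves these stretches was not tested.

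**Figure D5:**
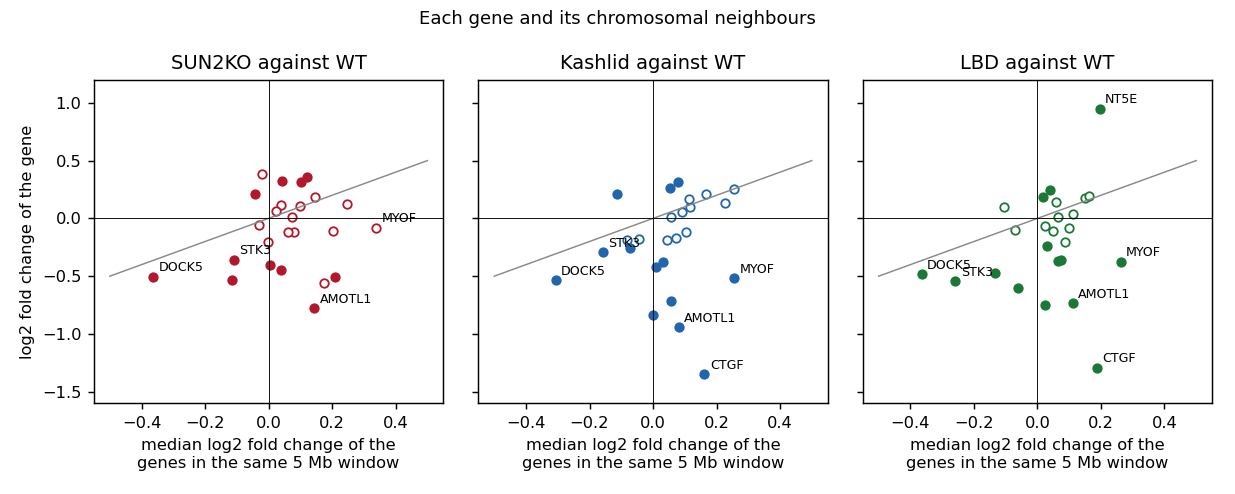
Log2 fold change over WT of each member with a full window (y axis) against the median log2 fold change of the genes in its 5 Mb window (x axis), per line; filled points passed the test and the grey line marks equality. DOCK5 and STK3 lie left of 0 near the line, whereas AMOTL1, CTGF and MYOF lie below it with windows right of 0.

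The replicates of Kashlid differed in the members as well. Kashlid replicate 2 was lower than replicate 1 in 21 of the 33 members (63.6%, against 49.2% of all genes), with a median difference of -0.11, and CYR61, CRIM1, TEAD1, AMOTL2 and AJUBA were among them. Elsewhere replicate 2 was lower in 15 members in WT, 20 in SUN2KO and 18 in LBD. Which of the Kashlid libraries is closer to the line's usual state was not tested.

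Another 30 genes of the pathway, each of them tested, were examined beside the members. In SUN2KO 6 rose and 6 fell, in Kashlid 8 rose and 7 fell, and in LBD 8 rose and 5 fell. The shares called, 40%, 50% and 43.3%, were near those of all genes (36.7%, 44.5% and 40.0%). TAOK3, a kinase that can activate the MST kinases, rose most, from 32.8 and 33.0 CPM in WT to 55.1 to 62.6 in the lines. Its log2 fold changes were 0.91, 0.82 and 0.81 (adjusted p at most 2.3e-08). WWC2, a relative of KIBRA, fell by 0.62, 0.66 and 0.73 (at most 5.87e-06), in a window of 9 genes with medians of -0.23, -0.51 and -0.40. BTRC, the ubiquitin ligase subunit that recognises phosphorylated YAP, rose by 0.50, 0.56 and 0.62 (at most 2.14e-04), in a window with medians of 0.32, 0.37 and 0.35; with the shift removed the calls in SUN2KO (0.177) and Kashlid (0.106) ended. FAT4, an atypical cadherin, fell in SUN2KO by 0.39 (0.019), a call lost in DESeq2 (0.0652), without WT replicate 2 (0.171), SUN2KO replicate 1 (0.135) or SUN2KO replicate 2 (0.0502).

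VGLL3, a cofactor of TEAD factors, was at 99.5 and 101 CPM in WT, against 114 and 109 for SUN2KO, 77.5 and 71.2 for Kashlid, and 77.4 and 68.5 for LBD. It fell by 0.43 in Kashlid (adjusted p = 2.3e-05) and 0.46 in LBD (1.4e-05), with 0.15 in SUN2KO (0.0766), and it was below SUN2KO by 0.58 and 0.61 on the log2 scale (-0.58 and -0.61, 2.03e-06 and 1.14e-06). MAP4K4, a kinase that activates LATS in parallel to MST, was 0.40 and 0.42 above SUN2KO in Kashlid and LBD (2.52e-05 and 1.63e-05). The polarity scaffold MPP5 was lower than SUN2KO in both (-0.35 and -0.26, 8.78e-04 and 0.0128). For MPP5 the LBD call was lost without SUN2KO replicate 1 (0.121), SUN2KO replicate 2 (0.0598) or LBD replicate 2 (0.254). MAP4K2, a kinase related to MAP4K4, was 0.30 and 0.29 above SUN2KO (0.0329 and 0.0476), and both calls ended in DESeq2 (0.104 and 0.133) and without any library of the pair (0.0675 to 0.223).

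Of 9 further reported YAP/TAZ targets, 8 were tested and INHBA, at no more than 0.568 CPM, was not. In SUN2KO 2 rose; in Kashlid 3 rose and 2 fell; in LBD 2 rose and 1 fell. These are 25%, 62.5% and 37.5% of the 8, where 36.7%, 44.5% and 40.0% of all genes were called. Their log2 fold changes over WT had a median of 0.17 (SUN2KO), -0.10 (Kashlid) and 0.03 (LBD). Each median lay above that of the 14 member targets (-0.37, -0.31 and -0.33), and only the one for Kashlid was negative. EDN1, the peptide endothelin-1, had 13.6 and 10.8 CPM in WT, against 12.1 and 12.4 for SUN2KO, 6.19 and 4.05 for Kashlid, and 5.26 and 6.16 for LBD. SUN2KO overlapped with WT, and both truncation lines lay below both. EDN1 fell by 1.25 ± 0.18 in Kashlid (adjusted p = 1.3e-05) and 1.09 ± 0.18 in LBD (6.08e-05), with 0.01 in SUN2KO. Against SUN2KO it fell by 1.26 (4.33e-05) and 1.10 (1.94e-04).

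ARHGAP29, a GTPase-activating protein, went up instead: 35.5 and 39.0 CPM in WT, against 60.1 and 59.9 for SUN2KO, 43.5 and 45.05 for Kashlid, and 47.8 and 49.9 for LBD. It rose by 0.69 in SUN2KO (adjusted p = 3.39e-07), 0.25 in Kashlid (0.0108; 0.144 without WT replicate 1) and 0.39 in LBD (2.81e-04). It was lower than SUN2KO in Kashlid (-0.44, 1.69e-04) and LBD (-0.30, 0.00725), the LBD call being lost without SUN2KO replicate 1 (0.0667), SUN2KO replicate 2 (0.0575) or LBD replicate 1 (0.0766). AREG, the EGF receptor ligand amphiregulin, rose in Kashlid by 0.61 (0.017) on the strength of Kashlid replicate 1, at 38.6 CPM against 18.7 in replicate 2. That call was lost in DESeq2 (0.222), without WT replicate 1 (0.0971) or WT replicate 2 (0.0516), and without Kashlid replicate 1 the value was -0.003 (0.99). SLIT2, a secreted guidance protein, fell in Kashlid by 0.35 (0.0409; 0.116 in DESeq2, and 0.0888 to 0.149 without any library of the pair). It was lower than SUN2KO there (-0.59, 0.00348; 0.0828 without SUN2KO replicate 1). The calls of ARHGEF17, a guanine nucleotide exchange factor, in SUN2KO (0.18, 0.0277) and LBD (0.20, 0.018) were lost without any library of the pair (0.0622 to 0.151 and 0.0622 to 0.102). CCDC80, a matrix protein, was lower in LBD than in SUN2KO (-0.42, 0.0128), lost in DESeq2 (0.0617) and without any library of the pair (0.0654 to 0.0908).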

How the data were processed

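The data are 8 RNA sequencing libraries of MDA-MB-231 cells, 2 in each group. Per the submitters' processing notes, the authors used Trim Galore, STAR 2.7.1a with hg19, bedtools 2.24.0, HTSeq and DESeq2. The count values are the raw reads per gene that the authors deposited; which annotation and strand setting they used is not given in the sources used here, and overlapping genes and close paralogs may share reads. The table had 0 entries naming no gene. The authors' deposited tables of log2 fold changes, with their deposited p-values, have no column names, were identified from their values, and serve only as a check: of 12, 13 and 15 members they call in SUN2KO, Kashlid and LBD, 10, 13 and 15 were called here, in the same direction. Another 12 columns of values per library were not used.

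Tests used edgeR 4.0.16 (R 4.3.3) with TMM factors, filterByExpr (14016 genes), 1 term per group over 8 libraries (4 residual degrees of freedom), a two-sided quasi-likelihood test and Benjamini-Hochberg adjustment over all genes tested, at 0.05. CPM are TMM-scaled. Total counts were 16570099 to 18814795 per library. All members were named, and of the further lists up to 4 called genes per comparison at a mean of at least 5 CPM, largest first. The members and lists were chosen with earlier results of these data known. Windows of 5 Mb needed 15 genes. Sequences came from RefSeq (GRCh38.p14), and lengths from GENCODE v29. Alternatives were DESeq2 1.42.0, scaling by median-ratio factors or by library size only, leaving out the filter or raising it to 5 CPM in 2 libraries, a fit of the 2 groups compared, a replicate block, the window offset, and leaving out each library. The steps were tested on simulated data.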

Additional observations from a re-analysis of the deposited data

Results flagged for a closer look

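NT5E was called in opposite directions in 2 lines against the same WT libraries, and the lines differed when compared directly. It was higher in LBD (log2 fold change 0.95) and lower in SUN2KO (-0.51), and the direct difference of LBD over SUN2KO was 1.46 ± 0.12 (edgeR's quasi-likelihood test, adjusted p = 1.32e-08), with both LBD libraries (47.9 and 57.8 CPM) above both SUN2KO libraries (20.5 and 17.9 CPM). The call in SUN2KO was lost without WT replicate 2 (0.112) or SUN2KO replicate 2 (0.0564), while the direct difference held without any single library.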

How the results depend on the processing

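Of 63 calls of members over the 6 comparisons, 14 were lost in DESeq2, which gave NT5E in LBD against Kashlid no adjusted p. Library size only lost 10, the window offset 6, a fit of only the 2 groups 5, and median-ratio factors 1. The stricter filter lost 3 and left CTGF untested, and leaving out the filter lost 0. Leaving out 1 library, taken over all such fits, ended more of these calls than DESeq2 did, as given with each gene. Among them were most calls of Kashlid and of LBD against SUN2KO. The count of members called in SUN2KO against WT was 12 as reported, 19 with only the 2 groups fitted, and 8 to 16 under the other alternatives. For Kashlid against SUN2KO it was 4 in DESeq2 and 3 to 10 without 1 library (8 with all), for LBD against SUN2KO 3 to 8 without 1 library (7 with all), and for LBD against Kashlid 2 with no filter and 1 to 5 without 1 library (1 with all). Over all genes, Kashlid against SUN2KO called 2529 and, without 1 library, 1186 to 2375; LBD against SUN2KO 1890 and 884 to 1355; LBD against Kashlid 408 and 129 to 839, with 775 at no filter and 129 with only the 2 groups fitted. Leaving out a library leaves its group with 1 sample, assumed to vary like the others. Correlations of the deviations of same-numbered libraries were -0.0074 to 0.084 over all genes tested and -0.019 to 0.22 over genes at 5 CPM or more, where 4 of 6 comparisons were above 0.1 and both truncation lines and SUN2KO correlated more with each other than with WT. No label ties the numbers to a shared culture or day, so they were not taken as pairs. With a replicate block, members called were 15, 19 and 21 in SUN2KO, Kashlid and LBD against WT, 10 and 8 in Kashlid and LBD against SUN2KO and 1 in LBD against Kashlid: 0 calls were lost and 11 gained, among them IGFBP3 in SUN2KO, Kashlid and LBD against WT (adjusted p = 0.0019, 0.0021 and 0.00108). All-gene calls under the block were 5412, 6457, 5798, 2787, 2134 and 581 in that order. Of the members, 3 values turned sign and became called: AMOTL2 in Kashlid against SUN2KO (0.03) ranged from -0.42 without Kashlid replicate 1 to 0.37 without replicate 2, AMOTL2 in LBD against Kashlid (0.01) from -0.33 without Kashlid replicate 2 to 0.47 without replicate 1, and IGFBP3 in LBD against SUN2KO (0.06) from -0.87 without LBD replicate 2 to 0.62 without replicate 1. AREG in Kashlid against WT (0.61) ranged from -0.0030 without Kashlid replicate 1 to 1.04 without replicate 2. The cause was not tested. Depth limits CTGF, RBMS3 and FOXF2, at under 10 CPM, and ANKRD1 and AMOT, for which no test was made; 2 libraries a group limit the rest.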
